A study of Ovis aries with 16 samples.

Results

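PTGS2 and PTX3 were followed, array by array, in the hippocampus of fetal sheep after maternal hypoxia or normoxia that lasted 30 min, with tissue collected at 24 h. They are 2 of the 964 genes named on the array and were found by name in its annotation, which gave 4 of the 15008 probes, 2 for PTGS2 and 2 for PTX3. The late gestation fetuses carried catheters and fell into 4 groups, each with 1 one-color array per fetus: normoxia control (NC, n = 3), normoxia with ketamine at 3 mg/kg (NK, n = 4), hypoxia control (HC, n = 5) and hypoxia with ketamine at 3 mg/kg (HK, n = 4). NC and HC received no ketamine. Hypoxia was made by nitrogen in the air of the ewe, ketamine was given to the fetus in a vein before the stimulus, and all groups then spent 23.5 h in normoxia. Most fetuses were twins, whole pregnancies were assigned to hypoxia or normoxia, and the labels do not tie fetuses to ewes, so the tests take each fetus as independent.

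PTGS2 encodes cyclooxygenase 2, the inducible enzyme that turns arachidonic acid into the precursor of the prostaglandins. In the brain it is known for its basal expression in excitatory neurons of the hippocampus and cortex and for its induction in endothelium and other cells by cytokines. PTX3 encodes pentraxin 3, a long pentraxin of innate immunity that binds complement components and microbes and is made by endothelium, glia and myeloid cells after signals such as interleukin 1, TNF and ligands of the toll-like receptors. Both genes are classical targets of NF-kappa B signaling.

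The probe sequences define each measurement, so both PTX3 probes are shown whole and both PTGS2 probes by their first 30 bases. All 4 probes are 60 bases long, and the letters are those of the array files, in lower case throughout.
PTX3 proximal probe (A_70_P010837), bases 543 to 602 of an expressed sequence tag, 45% GC: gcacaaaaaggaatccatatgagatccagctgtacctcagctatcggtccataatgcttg
PTX3 distal probe (A_70_P010836), bases 778 to 837 of the same tag, 45% GC: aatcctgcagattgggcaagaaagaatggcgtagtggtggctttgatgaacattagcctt
PTGS2 proximal probe (A_70_P039257), bases 3117 to 3176 of the PTGS2 transcript record, 38.3% GC: tgcgtctgttaggcagagggagaaaaatga
PTGS2 distal probe (A_70_P039256), bases 3301 to 3360 of the same record, 35% GC: ctgaatctgggaatttggaatatgtgtgtt
The PTGS2 probes match the RefSeq transcript record of that gene by accession, whereas the PTX3 probes carry the gene's name through the array annotation of the tag. No genome of the array's design was used here, so no chromosome position is given. Each probe had 1 spot per array.

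Levels below are log2 of the processed intensity minus log2 of the array's 75th percentile, so that a level of 0 is an intensity equal to that percentile. The percentile lay between 880 and 1200 intensity units, and between 76.7% and 82.6% of an array's spots stood well above background. The arrays lay on 2 slides of 8, with 2 of each group on the first slide and 1 NC, 2 NK, 3 HC and 2 HK on the second. The neuronal genes SST, GRIN1, GRIA1 and GRIA4 were well above background on all 16 arrays. HC replicate 5 stood apart from the other arrays over all probes. Its median correlation with them was the lowest (0.974), and it deviated most from its group mean (SD 0.433 log2). The level of SST, the somatostatin gene of interneurons, was 1.87 there and at least 4.40 on every NC, NK and HK array. The summed level of the 4 neuronal genes, mostly SST, was at least 20.3 times that percentile in HC replicates 1 to 4. It was 4.39 times in HC replicate 5. GRIN1 (−3.15) and GRIA1 (−0.99) were also lowest on that array, whereas GRIA4 (−3.05) was not. NEUROD1, a transcription factor of granule neurons, was at −6.46 there and between −1.81 and 1.16 elsewhere. Results that rest on the HC group are therefore given with and without this array, which was left out after its values were seen. A Dixon test within HC marked it as an outlier for none of the 4 PTGS2 and PTX3 probes (ratios of 0.537 to 0.709, critical value 0.71). In these bulk samples, fewer cells of a type and less RNA per cell cannot be told apart.

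The distal PTGS2 probe was bright in normoxia. Its level was 3.20, 2.96 and 2.22 in NC replicates 1 to 3 and 3.31, 2.77, 2.40 and 3.19 in NK replicates 1 to 4. It was 1.05, 2.48, 2.75, 3.52 and −1.82 in HC replicates 1 to 5 and 0.28, 1.29, 2.61 and 1.07 in HK replicates 1 to 4. The normoxia arrays lay close together, the HC arrays spread from the highest to the lowest level of the study, and 3 of the 4 HK arrays were below every normoxia array. The means were 2.92 ± 0.42 (SD, n = 4) in NK, 2.79 ± 0.51 (SD, n = 3) in NC, 1.59 ± 2.11 (SD, n = 5) in HC and 1.31 ± 0.97 (SD, n = 4) in HK, and no neighbors in this order passed the fit with all arrays.

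The proximal PTGS2 probe gave nearly the same order of arrays at low intensity, with a Pearson r of 0.98 between both probes over 15 arrays and of 0.95 over the 14 other than HC replicate 5. Its level was −3.23, −3.86 and −4.11 in NC replicates 1 to 3 and −3.35, −3.63, −4.02 and −3.69 in NK replicates 1 to 4. In HC replicates 1 to 5 it was −5.02, −4.48, −4.11, −3.29 and −7.98, and the last of these was the only one of the 15 not well above background. In HK it was −5.58, −4.10 and −5.62 in replicates 2 to 4, whereas the spot of HK replicate 1 was marked as an outlier by the scanner software and was left out of the fit. At −2.12, that spot would have been the highest of all 16, although the distal probe was low on the same array. The 3 HK levels in the fit lay below all 4 NK levels.

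**Figure D1:**
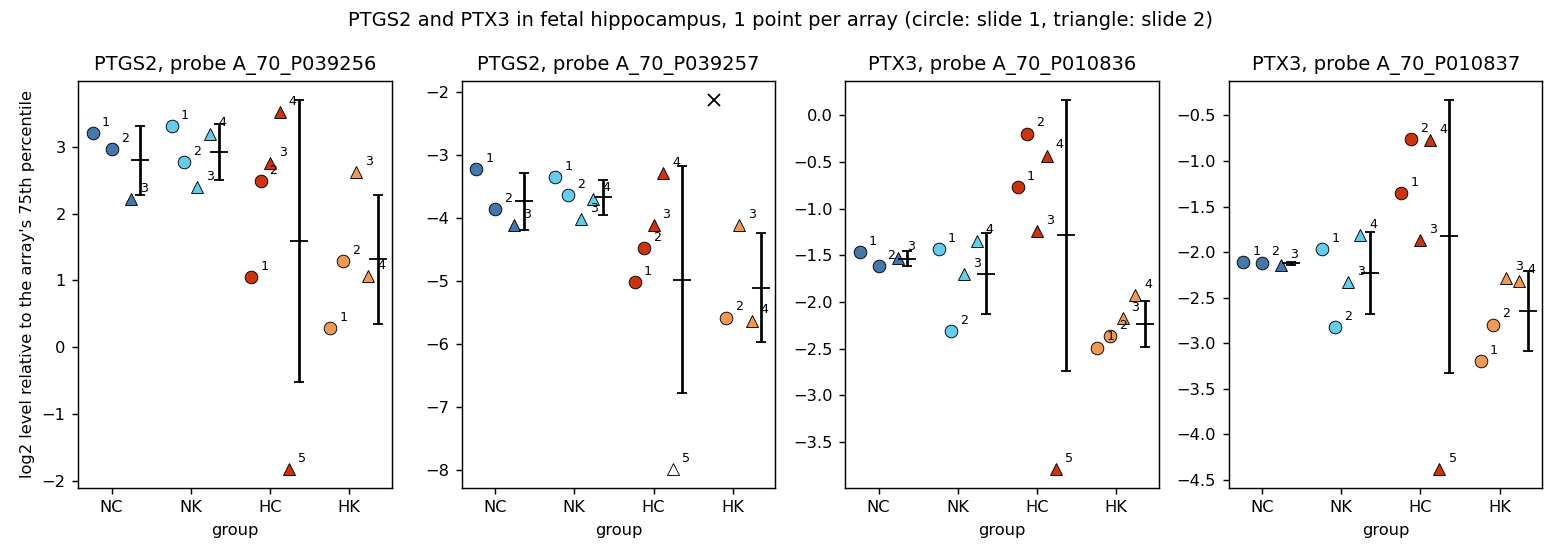
Level of each PTGS2 and PTX3 probe (log2, relative to the 75th percentile of the array) by group, with 1 point per array and its replicate number, circles for slide 1, triangles for slide 2 and bars for the mean and SD. HC replicate 5 lies at the bottom for all 4 probes, the open triangle was not well above background, and the cross is the spot marked as an outlier (−2.12), which is not in the mean.

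At an unadjusted p under 0.05, PTGS2 was lower after hypoxia when the effects with and without ketamine were averaged. By quantitative PCR on the same RNA, the paper lists PTGS2 among genes raised by hypoxia in hypothalamus and hippocampus. The paper set hypoxia against the normoxia control there, so the comparison to match is HC minus NC and not this average. HC minus NC, given below, was negative on these arrays and did not pass for either probe. The mean of HC minus NC and HK minus NK was −1.40 (SE 0.63), or 2.64-fold lower, for the distal probe (limma, n = 16, p = 0.0427, Benjamini-Hochberg adjusted p = 0.376). It was −1.34 (SE 0.57), or 2.53-fold lower, for the proximal probe (limma, n = 15, p = 0.0342, adjusted p = 0.351). Both probes thus passed the criterion of the study's methods, an unadjusted p under 0.05, as did 12.4% of the 12545 probes tested, 6.68% as lower. Neither passed after adjustment, which 13 probes (0.104%) did. The exact permutation test of the same mean difference, with hypoxia labels exchanged within the arrays with and without ketamine, gave two-sided p = 0.0446 for the distal and p = 0.0276 for the proximal probe. When HC replicate 5 was left out the difference was −0.97 (limma, n = 15, p = 0.0246) and −0.96 (limma, n = 14, p = 0.00785). Then 12.3% of probes passed, 6.49% as lower, and 0.518% after adjustment, neither PTGS2 probe among them. Over the 16 fits that each left out 1 array, the distal probe passed in 7 and the proximal probe in 11, and the highest limma p was 0.0857 (n = 15) and 0.0767 (n = 14).

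In each ketamine stratum with all arrays, the effect of hypoxia on PTGS2 did not pass. HC minus NC was −1.20 (SE 0.91, limma, n = 16, p = 0.206) for the distal and −1.24 (SE 0.78, limma, n = 15, p = 0.136) for the proximal probe, in a comparison where 10.8% of probes passed. Leaving out HC replicate 5 moved HC minus NC to −0.34 (95% interval −1.56 to 0.87) and −0.49 (95% interval −1.42 to 0.44). HK minus NK was −1.61 (SE 0.88, limma, n = 16, p = 0.0881) and −1.43 (SE 0.82, limma, n = 15, p = 0.104), where 5.25% of probes passed.

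HC replicate 5 enters HK minus NK only through the spread shared by the 4 groups. With that array left out, the same differences of −1.61 and −1.43 had limma p = 0.00876 (n = 15) and p = 0.00576 (n = 14), with adjusted p = 0.633 for both, where 6.34% of probes passed. For the proximal probe HK and NK did not overlap, as was so for 3.30% of probes, and the exact permutation test gave p = 0.0286, the smallest that 35 arrangements allow. Both hold only with the outlier-marked spot of HK replicate 1 left out, since its level of −2.12 lay above all NK levels. For the distal probe HK replicate 3 lay within the NK range, and the exact permutation test gave p = 0.0571. These exact p-values are not adjusted over the 20 such tests run per set of arrays.

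The direction of the averaged PTGS2 effect was the same on both slides. Within slide 1 it was −1.79 for the distal and −1.65 for the proximal probe, and within slide 2 it was −0.84 and −1.01. With the slide as a block it was −1.40 (limma, n = 16, p = 0.0539) and −1.29 (limma, n = 15, p = 0.0547), past the criterion for neither probe. Keeping the spot marked as an outlier moved the proximal probe to −0.96 (limma, n = 16, p = 0.149). Normexp background correction turned the proximal probe to 0.48 (limma, n = 15, p = 0.397), with the distal probe at −1.37 (limma, n = 16, p = 0.0159). The same fit on the deposited series table gave −0.14 for the proximal and −1.31 for the distal probe. The deposited log2 values of the proximal probe ran only from 8.10 to 8.49 over the arrays fitted. Its levels as used here ran from −7.98 to −3.23.

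With ketamine in normoxia, PTGS2 differed little between group means. NK minus NC was 0.13 (95% interval −1.90 to 2.15) for the distal and 0.06 (95% interval −1.70 to 1.82) for the proximal probe, in a comparison where 1.79% of probes passed (1.91% without HC replicate 5). HK minus HC was −0.28 (SE 0.83) and −0.13 (SE 0.78), where 4.74% of probes passed. The removal of HC replicate 5 moved HK minus HC to −1.14 (SE 0.52, limma, n = 15, p = 0.0485) for the distal and −0.88 (SE 0.43, limma, n = 14, p = 0.0622) for the proximal probe. Only the distal probe then passed, as did 6.15% of all probes, and the groups still overlapped for both.

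The interaction of ketamine with hypoxia was −0.41 (SE 1.26) for the distal and −0.19 (SE 1.13) for the proximal PTGS2 probe. With HC replicate 5 left out it was −1.26 (limma, n = 15, p = 0.125) and −0.94 (limma, n = 14, p = 0.147). A difference between the hypoxia effects with and without ketamine was therefore not shown for PTGS2.

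By its distal probe, PTX3 was highest in 4 of the 5 HC arrays and lowest in the other one. The level of the distal PTX3 probe was −1.46, −1.62 and −1.52 in NC replicates 1 to 3 and −1.43, −2.31, −1.70 and −1.34 in NK replicates 1 to 4. It was −0.77, −0.19, −1.24, −0.43 and −3.79 in HC replicates 1 to 5 and −2.49, −2.36, −2.17 and −1.92 in HK replicates 1 to 4. The NC arrays were nearly equal, the HK arrays all lay below them, and NK replicate 2 was as low as the HK arrays. All 16 spots were well above background, with intensities from 70.3 in HC replicate 5 to 1049 in HC replicate 2.

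The proximal PTX3 probe followed the distal one, with a Pearson r of 0.99 over the 16 arrays and of 0.98 over the 15 other than HC replicate 5. Its level was −2.11, −2.12 and −2.15 in NC and −1.97, −2.83, −2.33 and −1.81 in NK. In HC it was −1.35, −0.76, −1.87, −0.77 and −4.39, and in HK it was −3.20, −2.80, −2.28 and −2.31. Again HC replicates 1, 2 and 4 were above every array of the other groups, whereas HC replicate 3 lay just below NK replicate 4. For the distal probe the mean in HC (−1.28 ± 1.46, SD, n = 5) came before NC (−1.53 ± 0.08, SD, n = 3), NK (−1.70 ± 0.44, SD, n = 4) and HK (−2.24 ± 0.25, SD, n = 4). No neighbors in this order passed the fit with all arrays.

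With all 16 arrays, neither PTX3 probe passed the criterion in any comparison. HC minus NC was 0.25 (SE 0.59) for the distal and 0.30 (SE 0.62) for the proximal probe. HK minus HC was −0.95 (SE 0.54, limma, n = 16, p = 0.102) and −0.82 (SE 0.57, limma, n = 16, p = 0.173). The average effect of hypoxia was −0.15 (SE 0.41) and −0.06 (SE 0.43), and the exact permutation test of it gave p = 0.803 and p = 0.925. The average effect turned to 0.17 (limma, n = 15, p = 0.352) and 0.26 (limma, n = 15, p = 0.232) without HC replicate 5, past the criterion for neither probe.

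Once HC replicate 5 was left out, PTX3 was higher in HC than in NC and lower in HK than in HC. HC minus NC was 0.88 (SE 0.26), or 1.84-fold higher, for the distal probe (limma, n = 15, p = 0.00445, adjusted p = 0.212) and 0.94 (SE 0.31), or 1.92-fold higher, for the proximal probe (limma, n = 15, p = 0.00915, adjusted p = 0.276). In that comparison 9.71% of probes passed, 4.42% as higher, and 0.327% after adjustment, beside 0.0159% with all arrays. For both PTX3 probes the 4 remaining HC arrays lay above the 3 NC arrays, and groups without overlap were found for 10.7% of probes. The array left out lay below the NC arrays for both probes. The exact permutation test gave p = 0.0571 for each.

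HK minus HC without that array was −1.58 (SE 0.24), or 2.99-fold lower, for the distal probe (limma, n = 15, p = 1.48e-05, adjusted p = 0.0908) and −1.46 (SE 0.28), or 2.75-fold lower, for the proximal probe (limma, n = 15, p = 0.000185, adjusted p = 0.340). In that comparison 2.71% of probes passed as lower and 1 probe (0.00797%) passed after adjustment, which was neither of these. The 4 HK arrays lay below the 4 remaining HC arrays for both probes, and groups without overlap were found for 2.57% of probes. The exact permutation test gave p = 0.0286 for each, the smallest two-sided value for 70 arrangements. HC replicate 5, left out after its values were seen, lay below all HK arrays for both probes. With it kept the groups overlapped, and the exact permutation test gave p = 0.254 and p = 0.341. The separation and the small p-values above thus depend on leaving it out.

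The effect of hypoxia on PTX3 differed between fetuses with and without ketamine in the fit without HC replicate 5. The interaction was then −1.42 (SE 0.35, limma, n = 15, p = 0.00132) for the distal and −1.35 (SE 0.42, limma, n = 15, p = 0.00652) for the proximal probe, where 3.93% of probes passed and none did after adjustment. With all arrays it was −0.79 (SE 0.83) and −0.71 (SE 0.87), where 3.40% passed. HK minus NK was −0.54 and −0.41 with or without that array. It passed for the distal probe in the fit without the array (limma, n = 15, p = 0.0400) and in neither probe with it, and the exact permutation test gave p = 0.0857 and p = 0.314. NK minus NC was −0.16 (95% interval −1.49 to 1.17) and −0.11 (95% interval −1.50 to 1.29).

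The slides gave different values for PTX3, and HC replicate 5 lies on slide 2. On that slide HC replicates 3 and 4 lay above NC replicate 3 and above HK replicates 3 and 4 for both probes, whereas HC replicate 5 lay below all of these. Within slide 1, which holds 2 arrays of each group, HC minus NC was 1.06 for both probes and HK minus HC was −1.95 and −1.94, all past the criterion. Within slide 2, HC minus NC was −0.30 and −0.20, and HK minus HC was −0.22 and 0.05, none past it. With slide as a block over all arrays, HC minus NC was 0.31 and 0.33, and HK minus HC was −0.97 and −0.83, again none past it.

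**Figure D2:**
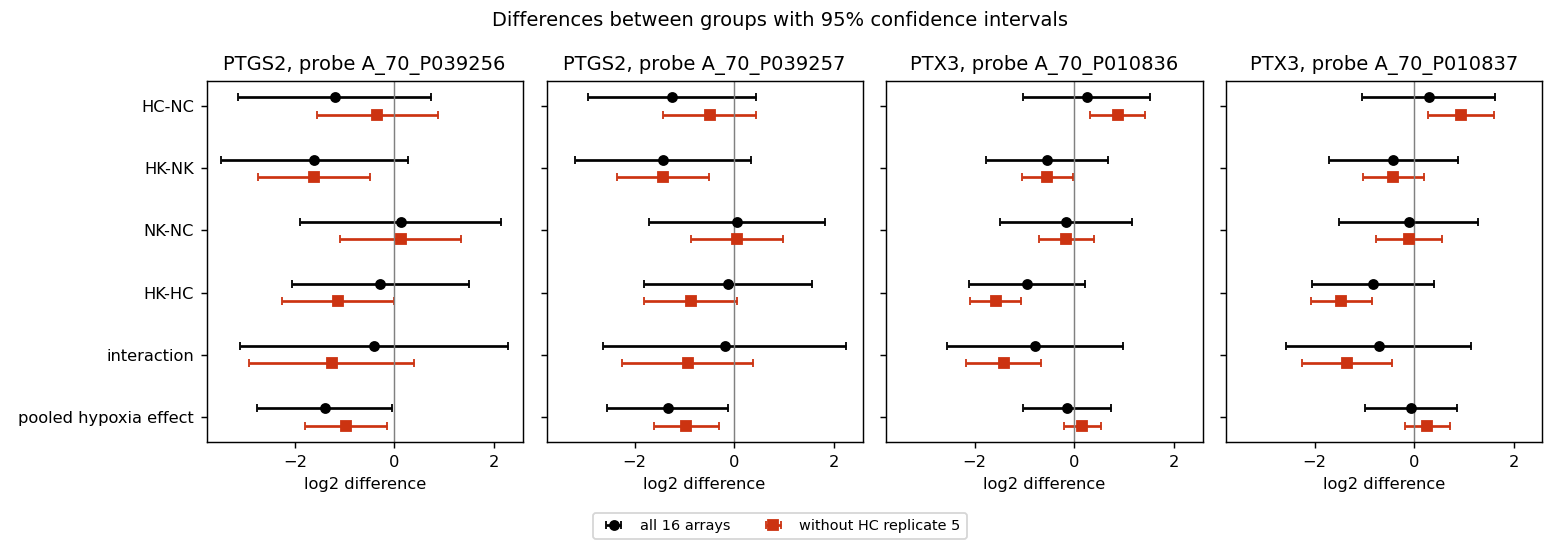
Log2 differences of the 4 probes in each comparison (horizontal axis) with 95% confidence intervals of the limma fit, over all 16 arrays (black circles) and without HC replicate 5 (red squares). The intervals of PTX3 in HC-NC, HK-HC and the interaction exclude 0 without that array and include it with all arrays, whereas those of PTGS2 in the average hypoxia effect exclude 0 in both.

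PTGS2 and PTX3 were then set against each other over the arrays, with each gene taken as the mean of its centered probes. For HK replicate 1 the PTGS2 value is that of the distal probe alone. Over all 16 arrays Pearson r was 0.69 (permutation p = 0.00402, adjusted p = 0.0117 over the 11 relations computed) and Spearman rho was 0.51 (permutation p = 0.0441, adjusted p = 0.121). Once the 2 arrays farthest from the median of PTGS2, HC replicate 5 and HK replicate 1, were left out, r was 0.22 (permutation p = 0.457), so the relation rests on those arrays. With HC replicate 5 alone left out, r was 0.41 (permutation p = 0.124) and rho was 0.41 (permutation p = 0.131).

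Within slide 1 r was 0.29 (n = 8, permutation p = 0.480), and within slide 2 it was 0.93 (n = 8, permutation p = 0.00202), or 0.69 (n = 7, permutation p = 0.124) without HC replicate 5. On the deviations from the group means it was 0.84 over all arrays and 0.36 without that array. HC replicate 5 was the lowest array for both genes. HC replicate 1 was low for PTGS2 and high for PTX3.

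**Figure D3:**
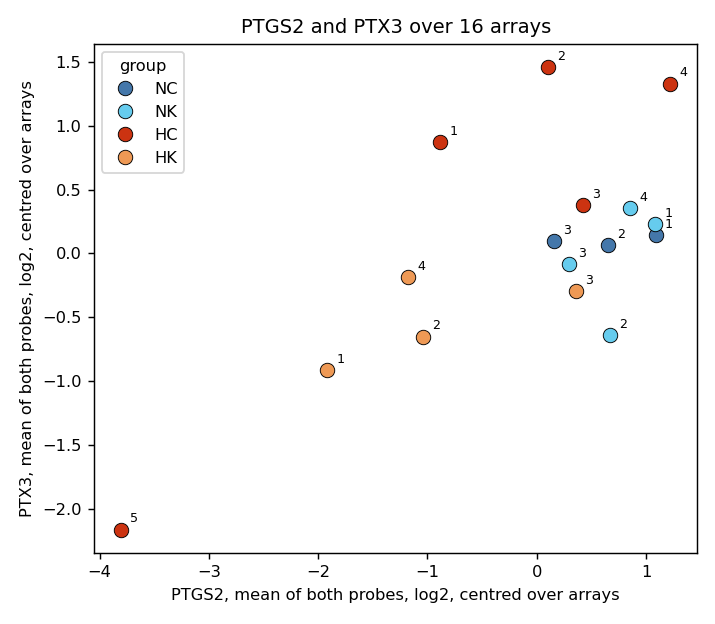
PTX3 against PTGS2, each the mean of both probes after centering (log2), with 1 point per array, colored by group and numbered by replicate. The PTGS2 value of HK replicate 1 is the distal probe alone. HC replicate 5 stands alone at the lower left, and without it and HK replicate 1 the correlation falls from 0.69 to 0.22.

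Genes around PTGS2 in prostanoid metabolism were few on this array. Of 42 listed genes of prostanoid synthesis, transport and reception, 8 had a named probe and 7 were tested. PTGS1, the constitutive cyclooxygenase, fell in HC against NC by 0.71 (SE 0.21, limma, n = 16, p = 0.00484, adjusted p = 0.219). PTGFR, the receptor of prostaglandin F2 alpha, fell by 0.73 (SE 0.24, limma, n = 16, p = 0.00971). PPARG, a nuclear receptor that binds prostaglandin derivatives, rose by 0.52 (SE 0.18, limma, n = 16, p = 0.0117) and fell in HK against HC by 0.44 (limma, n = 16, p = 0.0177).

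The prostaglandin E receptor genes PTGER3 and PTGER4, the prostaglandin transporter SLCO2A1 and the prostaglandin D synthase PTGDS passed in none of the comparisons, and PTGER2 was well above background on 1 array and was not tested. In all, 1 gene of the list rose and 2 fell in HC against NC, where 4.57% of all probes rose and 6.19% fell, and the median difference was 0.14 beside −0.02 over all probes. None of the 7 passed in HK against NK by limma at an unadjusted p under 0.05, where 5.25% of all probes did. In HK against HC 1 fell, where 1.88% of all probes fell. The counts for the list in these comparisons were the same without HC replicate 5.

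The pentraxin list held genes known to bind, modify or receive PTX3 and its relatives. Of 32 listed, 7 had a probe and were tested, and none of them is another pentraxin. In HC against NC 4 rose and none fell, with a median of 1.07, where 4.57% of all probes rose, 6.19% fell and the median was −0.02. SELP, the P-selectin that PTX3 binds, rose by 4.15 (SE 0.98, limma, n = 16, p = 0.000788, adjusted p = 0.165). TLR4, the lipopolysaccharide receptor, rose by 1.07 (SE 0.31), the Fc receptor gene FCGR1A by 1.13 (SE 0.44) and the growth factor FGF2, which PTX3 can bind, by 0.64 (SE 0.28).

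In HK against NK, SELP was the only gene of the pentraxin list to rise, by 2.53 (SE 0.95, limma, n = 16, p = 0.0182), where 2.81% of all probes rose. The complement gene C3 passed in none of the comparisons. In HK against HC, TLR4 fell by 0.64 (SE 0.28), FCGR1A fell too (limma, n = 16, p = 0.0262) and none rose, where 1.88% of all probes fell. In the fit without HC replicate 5 the count that rose in HC against NC was again 4, and 3 fell in HK against HC, SELP among them (−2.53, limma, n = 15, p = 0.00371).

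Of 43 listed inducers and regulators that PTGS2 and PTX3 share, 19 were tested. This list, like those above, was chosen with earlier results of these data known, so its counts are a description. In HC against NC 10 of the 19 rose, none fell and 9 did not pass, and the median difference was 0.49. Over all probes 4.57% rose and 6.19% fell, with a median of −0.02. CD14, a coreceptor for lipopolysaccharide, rose by 1.97 (SE 0.45, limma, n = 16, p = 0.000578, adjusted p = 0.146). TLR2, a receptor for bacterial lipoproteins, rose by 1.20 (SE 0.30) and IL1B, the gene of interleukin 1 beta, by 1.18 (SE 0.34). NFKBIA, an inhibitor of NF-kappa B that NF-kappa B itself induces, rose by 1.31 (SE 0.35). IL1RN, the antagonist of the interleukin 1 receptor, was well above background on all 5 HC arrays and on no NC array, and its HC mean was at least 3.94-fold higher than the background bound in NC (limma, adjusted p = 0.180).

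TLR4 was given above, and the remaining 4 that rose, named after their values were seen, were TNF (2.24), the transcription factor CEBPB (1.25), the TNF receptor TNFRSF1A (0.47) and the adaptor MYD88 (0.43). In HC against NC, IL6 (−0.44, SE 0.52) and the glucocorticoid receptor gene NR3C1 (−0.33, SE 0.22) did not pass, nor did FOS or ZFP36. With HC replicate 5 left out 9 rose, with CD14 at 2.31 and NFKBIA at 1.64.

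In HK against NK, IL1RN was the only gene of the 19 to pass (limma, n = 16, p = 0.0396), with 2 of 4 HK arrays and 1 of 4 NK arrays well above background. Of all probes 5.25% passed in that comparison. CD14 and NFKBIA also passed in the fit without HC replicate 5, where 6.34% of all probes did. In HK against HC 8 of the 19 fell and none rose, with a median of −0.34, and 9 fell without that array. Of all probes 1.88% fell in that comparison, and 2.71% without that array. The interaction passed as lower for TNFRSF1A with all arrays, and for TLR2, CD14, NFKBIA and CEBPB without that array. It passed in either direction for 3.40% of all probes with all arrays and for 3.93% without that array. HC minus NC and HK minus HC share the HC arrays, so opposite signs in these comparisons are not independent.

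**Figure D4:**
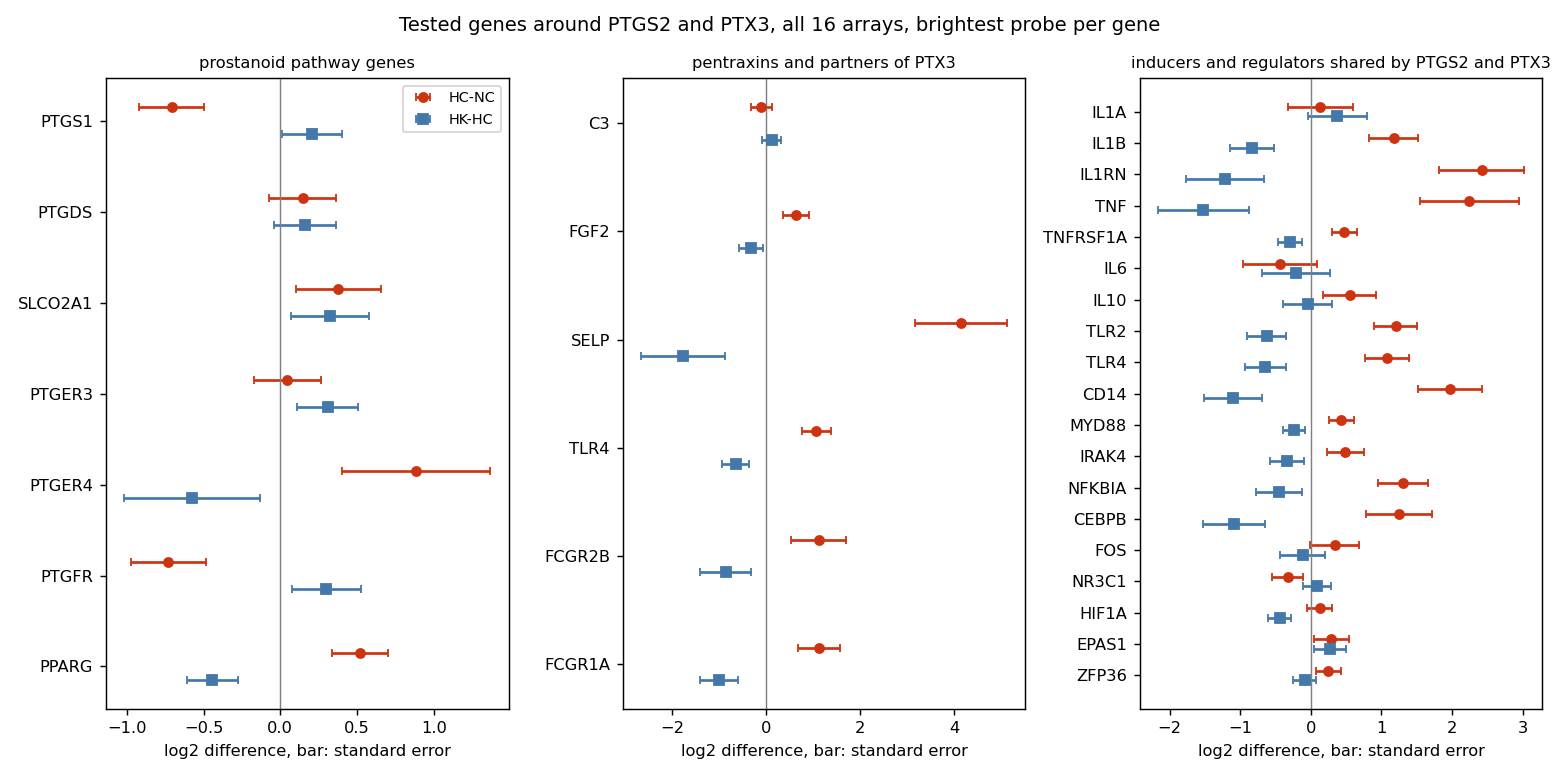
Log2 differences with standard errors for tested genes of the 3 lists (6 of the 7 in the pentraxin list), HC-NC (red circles) and HK-HC (blue squares), over all 16 arrays. In the list of shared inducers and regulators 17 of 19 genes lie above 0 in HC-NC and 3 of 19 in HK-HC.

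Markers of the cells that the dissected block can hold were read beside both genes. Summed levels are in multiples of the 75th percentile intensity. The 4 genes of hippocampal neurons, led by SST, summed to 27.6 to 32.8 in NC, 22.8 to 38.1 in NK and 34.9 to 38.4 in HK. They summed to 20.3 to 34.2 in HC replicates 1 to 4 and to 4.39 in HC replicate 5, where PTGS2 and PTX3 were lowest too. GRIN1, GRIA1 and GRIA4, glutamate receptor genes of neurons, passed as lower in HC than in NC over all arrays, and GRIA4 alone did without that array.

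The 6 genes of microglia and macrophages summed to 0.51 to 0.64 in NC, 0.55 to 0.65 in NK, 0.84 to 2.16 in HC and 0.58 to 1.06 in HK, so that all 5 HC arrays were above all normoxia arrays. Of these, CD14, FCER1G and FCGR1A rose in HC against NC. HC replicate 5 was at 0.97, above normoxia, while its PTX3 level was the lowest of the study. The 2 neutrophil genes, LTF and CATHL3, summed to 0.05 to 0.29 in normoxia and to 5.78, 6.08 and 7.21 in HC replicate 3, HK replicate 2 and HK replicate 4. Both rose in HK against NK, and PTX3 was below the NC arrays in those HK arrays. MMP9, the other neutrophil gene on the array, was well above background on 1 array and was not tested.

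Endothelial genes summed to 0.84 to 1.36 in normoxia, 1.25 to 3.97 in HC and 1.08 to 1.86 in HK, and SELP and the adhesion gene ICAM1 (2.74, SE 0.69) were the 2 of 5 tested that rose in HC against NC. PECAM1 (0.09), FLT1 (0.10) and KDR (−0.40) did not pass in that comparison, and KDR, a receptor of vascular endothelial growth factor, was lower in HK than in NK (−0.51, limma, n = 16, p = 0.0175). Astrocyte genes summed to 50.3 to 67.6 in normoxia and 57.0 to 78.4 in hypoxia, and the gap junction gene GJA1 rose in HC against NC over all arrays (0.46, SE 0.21) and did not pass without HC replicate 5 (0.42, limma, n = 15, p = 0.0859). Choroid plexus genes, led by the transthyretin gene TTR, ranged from 0.93 to 85.5 and reached 35.6 or more in NC replicate 2, NK replicate 2, HC replicates 2 and 5 and HK replicates 2 and 4. Those arrays hold both high and low PTX3 and PTGS2 levels. Meningeal genes (2.85 to 17.3) and HBB of red blood cells (5.96 to 34.3) passed in none of the comparisons, and no oligodendrocyte marker of the list had a named probe. The part of cell composition in the PTGS2 and PTX3 differences was not tested.

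**Figure D5:**
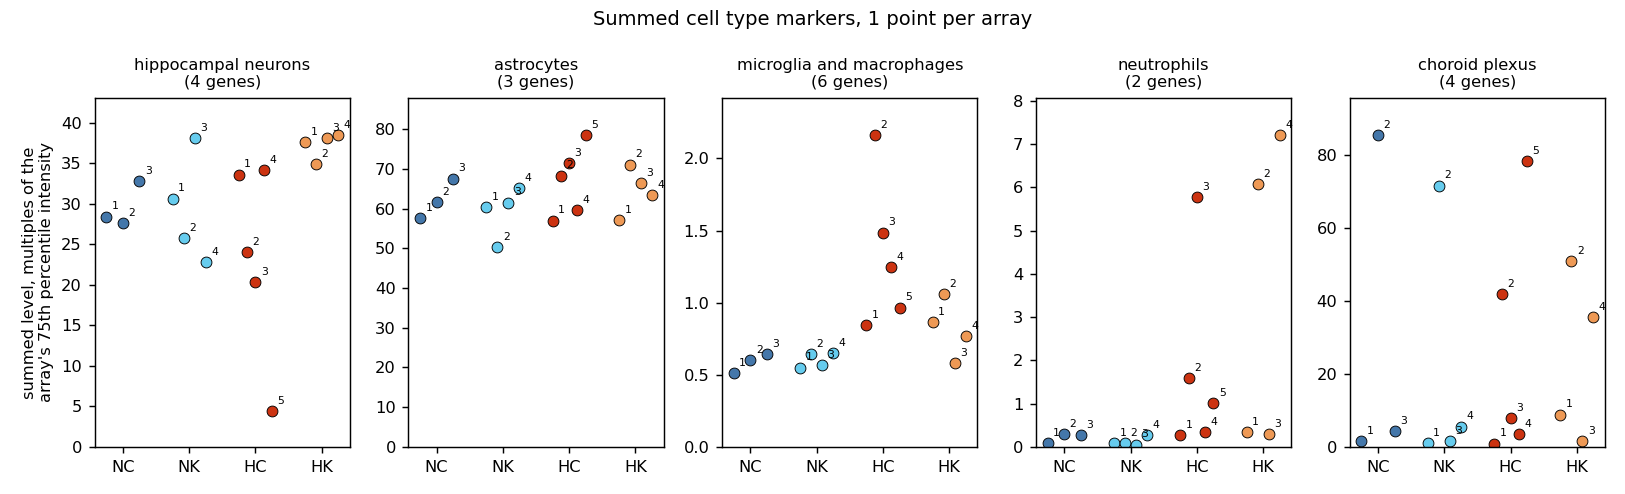
Summed level of marker genes (multiples of the 75th percentile intensity of the array, axis from 0) by group for 5 cell types, with 1 point per array and its replicate number. The neuron sum, which is mostly SST, is lower in HC replicate 5 (4.39) than on the other 15 arrays. The microglia and macrophage sum is above all normoxia arrays in the 5 HC arrays.

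The names whose probes varied most like each gene over the 16 arrays are given as a description, out of 1259 candidate probes. For PTGS2 they were NEUROD1 (r = 0.87), MYOD1 (0.85), a probe described as neuropilin-1 (0.85), KRT25 (0.82), the somatostatin receptor gene SSTR2 (0.81) and a probe named CAMK2 (0.81). On the deviations from the group means these lay between 0.73 and 0.87, and without HC replicate 5 between 0.52 and 0.75. For PTX3 the 6 highest included KRT25 (0.77), CREM (0.77), IL12A (0.75), JUNB (0.74) and HIF1A (0.74). Those named lay between 0.72 and 0.85 on the deviations, and between 0.55 and 0.67 without HC replicate 5. KRT25, a keratin of hair follicles, and MYOD1, a factor of muscle, were dim here (levels of at most −2.80 and −4.26), and all points share the arrays and their scaling.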

How the data were processed

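Hippocampal RNA carried the Cy3 dye on Agilent ovine arrays of 1 color. The authors deposited the scanner output (Feature Extraction 10.1.1.1 per the file headers), in which the processed intensity of each spot is background-subtracted and not normalized between arrays, and a table of log2 values whose quantiles are shared between arrays. Per the labels, limma and R 2.15.1 were used upstream. The deposited log2 table served as an alternative only.

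Here, log2 of the processed intensity minus log2 of the 75th percentile of each array was taken. Control spots and spots marked as outliers were left out. Spots count as well above background when they exceed it by 13 SD, and 12545 of 15008 probes that were so on at least 3 arrays were tested with limma 3.58.1 in R 4.3.3 in 1 linear model of the 4 groups. The criterion was an unadjusted p under 0.05, with Benjamini-Hochberg adjustment over all tested probes beside it. A fit without an array kept the same probes. The fit was tested on simulated data with known differences. Single values were compared by two-sided exact permutation tests (4 comparisons and the stratified test per probe). Correlation p-values rest on permutations of the arrays.

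Gene names were matched for 1556 probes by accession, symbol or synonym to RefSeq names, otherwise kept from the array. Each gene of a list is shown by its brightest probe, and a few genes counted in the lists and rankings are not reported here by name. From each list, genes past the criterion in HC against NC or HK against NK were named, up to the 6 with the smallest p, and the 6 names most correlated with each gene. The members and lists were chosen with earlier results of these data known. The number of arrays limits the precision.

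Alternatives were normexp (offset of 50), quantile normalization, scaling by the median, the deposited values, other filters on dim probes, the slide or the replicate number as a block, each slide alone, only the groups compared, array weights, a trended and robust prior, the adjusted threshold, the mean of both probes, outlier-marked spots kept and leaving out each array. Replicate numbers of the labels were taken to pair NC with NK, because the deviations of same-numbered arrays from their group means correlated at 0.46, 0.40 and 0.20 over probes. For HC with HK the correlations were 0.51, 0.35, 0.096 and 0.11, beside a mean of −0.07 over other numbers. That pairing was taken as undecided, because 1 of the 4 was under 0.1. Same-numbered arrays also lay on the same slide in all groups. For NK with HK the correlations were 0.070, 0.15, 0.18 and 0.36, beside a mean of −0.06 over other numbers, although whole pregnancies were assigned to hypoxia or normoxia. Whether same-numbered NC and NK fetuses, or HC and HK fetuses, shared a ewe was not tested.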

Additional observations from a re-analysis of the deposited data

How the results depend on the processing

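Values are log2 differences, distal probe before proximal where a pair is given. Quantile normalization, scaling by the median, the other filters on dim probes, the trended prior and the mean of both probes changed no direction and no call of the probes tested in each. The filter on all 16 arrays left out the proximal PTGS2 probe. Leaving out HC replicate 5 changed the calls of PTX3 and PTGS2 given in the report. The choices on the outlier-marked spot and on HC replicate 5 in the gene lists were made after seeing the data. The number of arrays and the dim proximal PTGS2 probe limit the precision.

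With normexp, the proximal PTGS2 probe turned to 0.69 in HC-NC, 0.27 in HK-NK, 0.18 in HK-HC and 0.48 in the average hypoxia effect, PTX3 turned to 0.14 and 0.25 in NK-NC and to 0.23 and 0.36 in the average effect, and the distal probes passed for PTGS2 in HK-NK (−1.59) and PTX3 in HK-HC (−0.86). After normexp the level at the 1st percentile was −0.47 to −1.58 on 5 arrays and −3.08 to −4.49 on the other 11. With the deposited values the distal PTGS2 probe passed in HK-NK (−1.55), the proximal one was −0.12 in HC-NC, −0.17 in HK-NK and −0.14 in the average effect (beside −1.24, −1.43 and −1.34 in the report) and turned to −0.0097 in NK-NC, PTX3 passed in HK-HC (−0.63 and −0.48), and its average effect turned to 0.042 and 0.048.

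With the slide as a block the average effect on PTGS2 did not pass (−1.40 and −1.29). Within slide 1, PTX3 passed in HC-NC (1.06 and 1.06), HK-HC (−1.95 and −1.94) and the interaction (−1.62 and −1.66), PTGS2 passed in HK-NK (−2.26 and −2.09) and its proximal probe in HC-NC (−1.20), while the distal PTGS2 probe turned to −0.039 in NK-NC and PTX3 turned to 0.25 and 0.23 in the average effect. Within slide 2, PTX3 turned to −0.30 and −0.20 in HC-NC and to 0.0035 and 0.078 in NK-NC, and its proximal probe to 0.046 in HK-HC. PTGS2 turned there to 0.36 and 0.26 in HK-HC, its proximal probe to 0.0076 in the interaction, and its average effect did not pass (−0.84 and −1.01).

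With the replicate number as a block, which leaves HC replicate 5 alone in its number, PTX3 passed in HC-NC (0.78 and 0.81), HK-HC (−1.58 and −1.46) and the interaction (−1.32 and −1.22), its distal probe passed in HK-NK (−0.54), and PTGS2 passed in HK-NK (−1.61 and −1.43), while the average effect on PTX3 turned to 0.12 and 0.20. The block changed no call in NK-NC, where every same-numbered correlation of deviations between the groups was above 0.1. In HK-HC, where the pairing is undecided, it changed the calls of PTX3. Fitted on the compared groups alone, HK-NK passed for the distal PTX3 probe (−0.54) and for PTGS2 (−1.61 and −1.43). With array weights PTX3 passed in HK-HC (−1.36 and −1.22), its average effect turned to 0.032 and 0.14, and the distal PTGS2 probe did not pass in the average effect (−1.06). After Benjamini-Hochberg adjustment the average effects on PTGS2 (−1.40 and −1.34) did not pass. With the outlier-marked spot kept, the proximal PTGS2 probe turned to 0.62 in HK-HC and 0.56 in the interaction, and its average effect did not pass (−0.96). The cause of these changes was not tested.

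Over the fits that each left out 1 array, PTX3 ranged from −0.023 to 0.88 and from 0.030 to 0.94 in HC-NC, −0.74 to −0.42 and −0.61 to −0.23 in HK-NK, −0.28 to 0.044 and −0.25 to 0.089 in NK-NC, −1.58 to −0.68 and −1.46 to −0.55 in HK-HC, −1.42 to −0.52 and −1.35 to −0.44 in the interaction, and −0.28 to 0.17 and −0.19 to 0.26 in the average effect. PTGS2 ranged from −1.68 to −0.34 and −1.67 to −0.49 in HC-NC, −2.04 to −1.26 and −1.93 to −1.17 in HK-NK, −0.16 to 0.33 and −0.13 to 0.31 in NK-NC, −1.14 to 0.20 and −0.88 to 0.30 in HK-HC, and −1.26 to 0.075 and −0.94 to 0.24 in the interaction. The average effect on PTGS2 ranged from −1.64 to −0.97 and −1.59 to −0.96, and it passed in 7 and 11 of the 16 fits. The correlation of PTGS2 with PTX3 ranged from 0.41 to 0.77. Without HC replicate 5 the genes of the prostanoid list past the interaction were 0 higher and 1 lower, and of the inducers 3 rose in HK-NK and 4 were lower in the interaction. Of all probes 6.34% passed in HK-NK and 3.93% in the interaction in that fit.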

Other observations

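Among the names whose probes varied against PTGS2 over the 16 arrays was NPPC, the gene of C-type natriuretic peptide (r = −0.84 and, without HC replicate 5, −0.81). This is a description over 1259 candidate probes on the same arrays. The glucocorticoid receptor gene NR3C1 passed as lower in the average effect of hypoxia (−0.33, limma, n = 16, p = 0.0479, adjusted p = 0.394). In that comparison 12.4% of all probes passed, 6.68% as lower. EPAS1, a hypoxia-inducible factor, was the only one of the 19 shared inducers and regulators to pass in NK against NC (0.93, limma, n = 16, p = 0.00288). Of all probes 1.79% passed in that comparison and none did after adjustment, EPAS1 included. It was well above background on 1 of 3 NC arrays and 4 of 4 NK arrays.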
